A study of Arabidopsis thaliana with 5 samples.

Results

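The core cell cycle machinery of Arabidopsis was represented here by 34 genes, made up of 10 A-type cyclins, 9 B-type cyclins, 10 D-type cyclins and 5 CDK genes, the single CDKA gene and the 4 CDKB genes. They were chosen by name and locus, out of 33056 annotated genes of chromosomes 1 to 5 without pseudogenes, and the rule uses no measured value. Every ChIP-Seq peak with any base inside a gene or within 2 kb of either of its ends was assigned to that gene. The question was whether chromatin bound by SCL28, a GRAS family transcription factor, or by AtSMOS1, an AP2 type transcription factor, lies at these genes.

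Cyclins are regulatory subunits that switch on cyclin-dependent kinases (CDKs), and the pairing of the subunits decides which substrates are phosphorylated at which step of the cell cycle. D-type cyclins with CDKA link growth, hormone and sugar signals to the start of DNA replication through phosphorylation of the retinoblastoma-related protein, A-type cyclins act from S phase onwards, and B-type cyclins with CDKB kinases act at entry into mitosis. Many mitotic genes of plants carry the mitosis-specific activator (MSA) element, a promoter motif bound by MYB3R transcription factors, and CDK inhibitors of the KRP and SIM/SMR families act on the kinase complexes.

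The data are lists of peaks from whole seedlings of Arabidopsis in the Columbia background. The sample records give growth with 16 h of light at 20 °C and dark at 18 °C, whereas the Methods of the paper name continuous light and a higher temperature. SCL28-GFP seedlings (labelled E1M-GFP) gave 2 replicates, AtSMOS1-GFP seedlings (labelled SNOS1-GFP) gave 2 replicates, both precipitated with an anti-GFP antibody, and wild-type (WT) total chromatin gave 1 input sample. The AtSMOS1-GFP transgene was driven by its own promoter, whereas the text of the study names 2 promoters for the SCL28-GFP line, its own and that of RPS5A, which is active in dividing cells. An immunoprecipitation from plants without the fusion protein was not analyzed here. The SCL28 lists hold 488 and 396 peaks on the 5 nuclear chromosomes, the AtSMOS1 lists 5438 and 6934 and the input list 5695. The lists give no counts. The supplement of the study states the read totals of the ChIP libraries, with the second SCL28 library the deepest, and these were not used here. In both replicate 2 lists the peak names carry the name of the other protein. The second SCL28 list shared 360 of its 396 peaks (90.9%) with the first, so the lists are used as labelled, with the values of each replicate given apart.

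No core cyclin or CDK gene had an SCL28 peak within 2 kb in both replicates, and 5 of the 34 had an AtSMOS1 peak in both. The 5 were CYCA2;4 (AT1G80370), CYCD1;1 (AT1G70210), CYCD3;1 (AT4G34160), CYCD6;1 (AT4G03270) and CDKA;1 (AT3G48750), and a sixth gene, CYCD5;1 (AT4G37630), had SCL28 peaks. Genes are called by their locus after they have been named, and the plots give both. B-type cyclins and CDKB genes, the mitotic members, had no peak of either protein in both replicates. Of all genes, 20.7% had an AtSMOS1 peak and 2.06% an SCL28 peak in both. In so few genes this absence is not read as a trait of the mitotic members. The AtSMOS1 peaks at members had fold enrichments of 2.72 to 4.76 in replicate 1 and 2.27 to 4.40 in replicate 2. Their medians were close to those of the lists. No peak at a member overlapped a peak of the other protein or of the input. For the input this says little about the members, because the ChIP peaks were called against an input. Leaving out ChIP peaks that overlap an input peak moved the AtSMOS1 share of all genes only from 20.7% to 20.6%. Over the whole list, 5.59% of the AtSMOS1 replicate 1 peaks overlapped an SCL28 replicate 1 peak. In replicate 2 the share of AtSMOS1 peaks overlapping an SCL28 replicate 2 peak was 3.87%. At these shares, the absence of overlap with SCL28 in so few AtSMOS1 peaks is not a result about the members. Seen from SCL28, most peaks did overlap AtSMOS1, 59.2% of its list in replicate 1 and 66.9% in replicate 2. The SCL28 peak at AT4G37630 was among those that did not, and a single peak is not read as a trait of the members.

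The sequences of the sites that carry these results are given first, 5′ to 3′ in the direction of the gene, from RefSeq's TAIR10.1 assembly. The first lies just past the 3′ end of AT3G48750 (chr3:18074650-18074873, plus strand) and is the interval of the AtSMOS1 replicate 1 peak, which holds both replicates' summits, each marked by 21 bases in capitals, with the replicate 2 summit first.
AT3G48750 downstream: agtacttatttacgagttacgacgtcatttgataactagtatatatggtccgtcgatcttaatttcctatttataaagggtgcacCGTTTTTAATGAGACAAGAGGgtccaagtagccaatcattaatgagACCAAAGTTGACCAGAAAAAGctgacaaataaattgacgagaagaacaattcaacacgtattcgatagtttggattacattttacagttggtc
The second is the part of the AtSMOS1 replicate 1 peak that lies before the transcription start site (TSS) of AT1G70210 (chr1:26439440-26439555, plus strand), with the 21 bases around its summit in capitals.
AT1G70210 upstream: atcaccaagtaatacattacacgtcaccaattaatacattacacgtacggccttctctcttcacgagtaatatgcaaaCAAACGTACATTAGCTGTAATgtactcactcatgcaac
The third is a stretch of 200 bases from an SCL28 peak called in both replicates upstream of AT4G37630 (chr4:17676426-17676625, plus strand), which falls just outside the 2 kb limit. The capitals mark the only place in the shared 334 bp that matches, with 1 mismatch, the 12-base motif that the study derived from the peaks common to SCL28 and AtSMOS1.
AT4G37630 upstream: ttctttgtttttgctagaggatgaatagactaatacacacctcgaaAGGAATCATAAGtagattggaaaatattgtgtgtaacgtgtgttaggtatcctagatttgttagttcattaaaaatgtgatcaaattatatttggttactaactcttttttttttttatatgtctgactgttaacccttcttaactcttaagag

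The share of members with a peak was close to or below that of all genes in each list. For SCL28, 1 of 34 members (2.94%) had a peak in replicate 1, against 2.71% of all genes, and 0 had a peak in replicate 2, against 2.27%. In both SCL28 replicates the count was 0 members, against 2.06% of all genes, and at that share the absence of members is not a result about them. For AtSMOS1, 7 members (20.6%) had a peak in replicate 1, against 24.0% of all genes, and 7 members (20.6%) in replicate 2, against 30.3%. In both AtSMOS1 replicates the count was 5 members (14.7%), against 20.7% of all genes. In the input, 3 members (8.82%) had a peak, against 26.7% of all genes. Overlapping SCL28 and AtSMOS1 peaks in both replicates were listed at 0 members, against 1.27% of all genes. With protein-coding genes as the background the AtSMOS1 share in both replicates was 21.1%. With the 2 kb window, the share of members was therefore below the background for AtSMOS1 and for the input in every list. These counts are small, and for AtSMOS1 the order changed with the window. The lower share is not read as a trait of the members, and no test of the members against all genes was made.

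**Figure D1:**
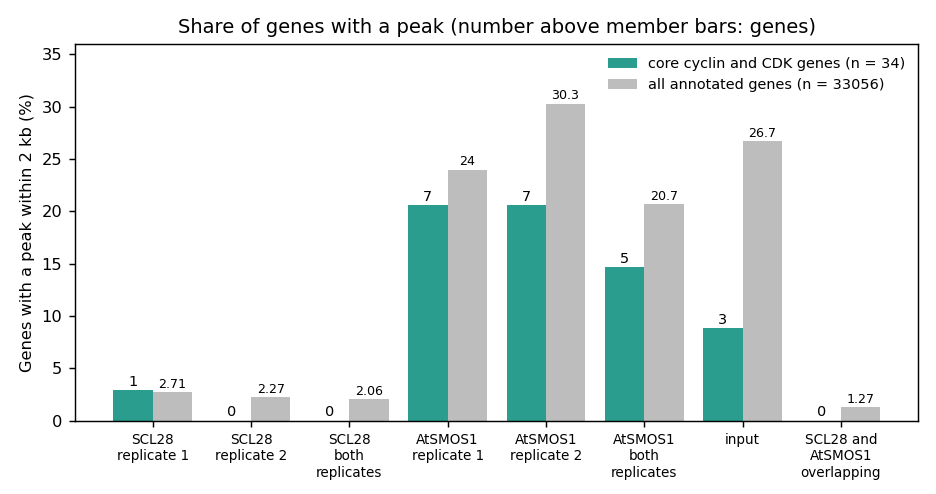
Share of genes (%, y axis) with a peak within 2 kb in each list and in both replicates (x axis), for the 34 core cyclin and CDK genes (green, left, number of genes above the bar) and for all 33056 genes (grey, right, percent above the bar). The green bars for AtSMOS1 and for the input stand below the grey bars, and the green bar for SCL28 is present only in replicate 1, where it stands for 1 gene.

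The window matters for this order. Members are longer than the average gene, with a median length of 2388 bp against 1807 bp for all genes and 2078 bp for protein-coding genes, and their range was 1522 to 5075 bp. When only peaks touching the gene itself were counted, 4 members (11.8%) had an AtSMOS1 peak in both replicates, against 6.59% of all genes, so that the members' share was then the higher. The 4 were AT1G80370, AT1G70210, AT4G34160 and AT4G03270, and the peaks at AT3G48750 began 9 bp and 21 bp past its end. At 1 kb the shares were 14.7% of members and 15.4% of all genes, and when the summit had to lie within 2 kb of the TSS, which gives every gene the same window, they were 5.88% (2 members, AT1G70210 and AT4G34160) and 15.0%. The part of gene length in these counts was not tested.

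**Figure D2:**
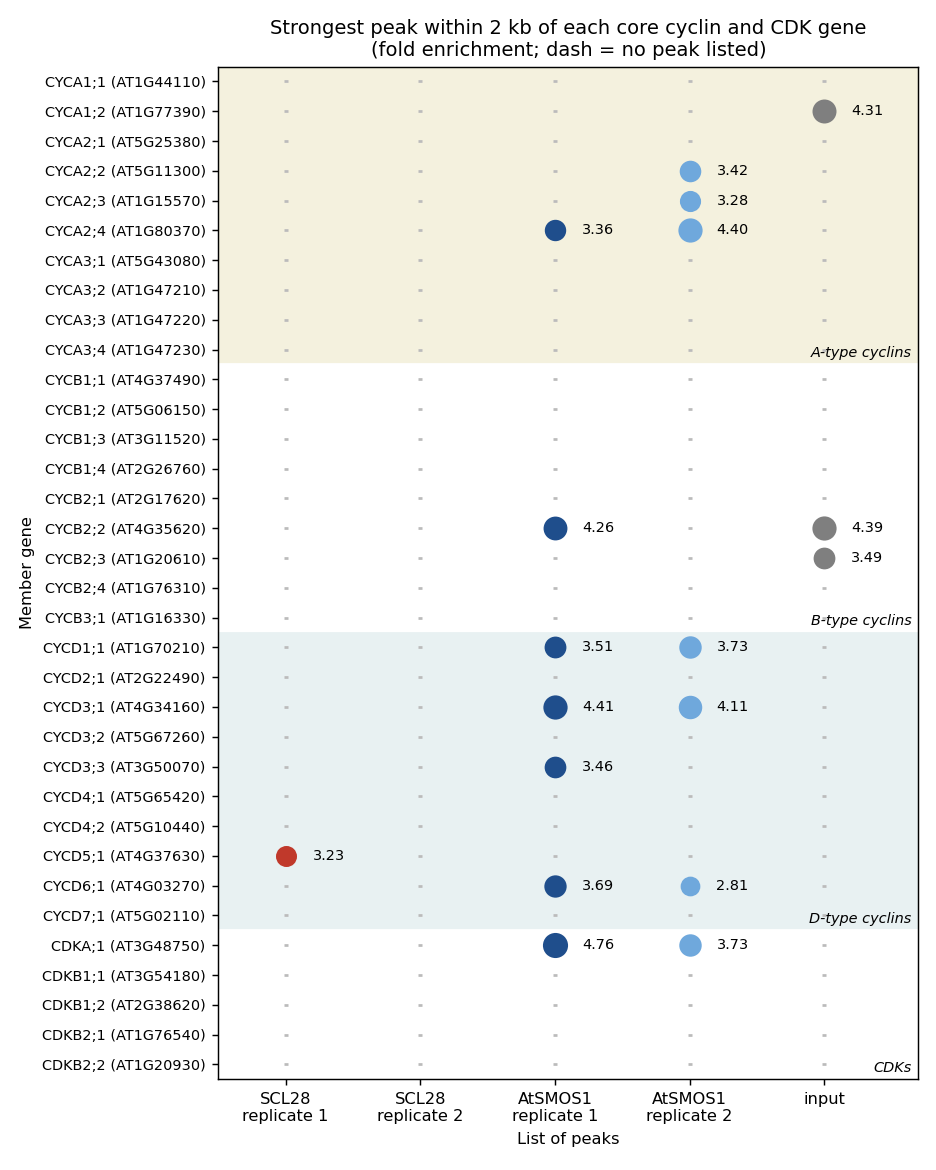
Strongest peak within 2 kb of each of the 34 members (rows, with locus) in each of the 5 lists (columns), where the area of a dot and the number beside it give the fold enrichment and a dash marks that no peak was listed. AtSMOS1 dots in both replicates stand at AT1G80370, AT1G70210, AT4G34160, AT4G03270 and AT3G48750, and the SCL28 columns hold a single dot, at AT4G37630.

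AT3G48750 (chr3:18071454-18074641), the CDKA gene, which encodes the central kinase of the plant cell cycle and the counterpart of yeast CDC28, was the only CDK among the members with a peak within 2 kb. AtSMOS1 replicate 1 gave a peak at chr3:18074650-18074873 with a fold enrichment of 4.76 and a −log10 q of 6.76, and replicate 2 a peak at chr3:18074662-18074857 with a fold enrichment of 3.73 and a −log10 q of 6.93. The summits were 46 bp apart and lay 150 bp and 104 bp past the annotated end of the gene, and the mean fold enrichment was 4.24 ± 0.73 (SD, n = 2). The interval touches no other gene, and AT3G48750 is the nearest gene to it in both replicates. The 4 CDKB genes, plant-specific mitotic kinases, had no peak of any list within 2 kb, as was the case for 48.4% of all genes. CDKB1;2 (AT2G38620) came nearest, with an AtSMOS1 replicate 1 peak of 4.79-fold enrichment 2243 bp away, close to AT2G38610, and no overlapping peak in replicate 2.

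Of the 10 D-type cyclins, 3 had an AtSMOS1 peak in both replicates, against 20.7% of all genes. In replicate 1 the count was 4, against 24.0% of all genes, and in replicate 2 it was 3, against 30.3%. These counts are too small to be read as a preference for D-type cyclins. At the D1 cyclin AT1G70210 (chr1:26439556-26443007) the peak sat on the TSS. Replicate 1 gave a fold enrichment of 3.51 with its summit at −28 bp from the TSS, and replicate 2 a fold enrichment of 3.73 with its summit at 34 bp inside the 5′ UTR, a distance of 62 bp between summits and a mean of 3.62 ± 0.16 (SD, n = 2). The replicate 2 interval also touches AT1G70209. A second site past the gene was called in both replicates, with fold enrichments of 2.85 and 3.11 (mean 2.98 ± 0.18, SD, n = 2) and summits 1592 bp and 1530 bp beyond its end, where the long noncoding gene AT1G09147 is nearer. Replicate 2 alone held a further peak, in the 3′ UTR, with a fold enrichment of 3.18.

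The D3 cyclin AT4G34160 (chr4:16357421-16359565), a D-type cyclin induced by cytokinin and sucrose, also had its shared peak on the TSS. The fold enrichment was 4.41 in replicate 1 and 4.11 in replicate 2 (mean 4.26 ± 0.21, SD, n = 2), against 4.24 ± 0.73 at AT3G48750. The summits lay at −84 bp and at 45 bp from the TSS, 129 bp apart, and the first 40 bp of AT4G34160 overlap the gene AT4G34150 (chr4:16354857-16357460), so that the peak is assigned to both genes. A replicate 1 peak of 2.72-fold enrichment at −1091 bp, nearest to AT4G34150, and a replicate 2 peak of 2.27-fold enrichment, 269 bp past the end of AT4G34160, had no counterpart in the other replicate.

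The D6 cyclin AT4G03270 (chr4:1431844-1433861, minus strand), the cyclin that SHORT-ROOT and SCARECROW switch on for the formative division of the root ground tissue, had its peak at the other end of the gene. Fold enrichments were 3.69 and 2.81 (mean 3.25 ± 0.62, SD, n = 2), with the replicate 1 summit 54 bp before and the replicate 2 summit 20 bp past the annotated end. Both summits also lie inside the neighbouring gene AT4G03260. CYCD3;3 (AT3G50070), a further D3 cyclin, had a peak in replicate 1 only, of 3.46-fold enrichment with its summit 1942 bp past the gene. Its interval began 1840 bp from the gene, near the limit of the window. The other D-type cyclins AT2G22490, AT5G67260, AT5G65420, AT5G10440 and AT5G02110 had no peak of any list within 2 kb.

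The D5 cyclin AT4G37630 (chr4:17679168-17681264), a cyclin linked to natural variation in endoreduplication, was the only member with SCL28 peaks and had no AtSMOS1 peak within 5 kb. Within 2 kb it had a peak in SCL28 replicate 1 only (chr4:17677549-17677821), with a fold enrichment of 3.23, a −log10 q of 7.76 and a summit at −1426 bp, which ranked 362 of 488 in its list. Farther upstream, past the 2 kb limit, a stronger site was called in both SCL28 replicates, at chr4:17676388-17676761 in replicate 1 and chr4:17676399-17676732 in replicate 2. Its fold enrichments were 4.44 and 4.00 (mean 4.22 ± 0.31, SD, n = 2), its −log10 q values 13.98 and 9.36, and its summits at −2616 bp and −2669 bp, 53 bp apart. AT4G37630 is the nearest gene to both intervals, which end 2407 bp and 2436 bp before it. The site ranked 204 of 488 and 244 of 396 by fold enrichment, near the middle of both lists. The nearest AtSMOS1 peaks lay 5147 bp and 5125 bp from the gene in replicates 1 and 2. Over the whole SCL28 lists, 59.2% of peaks in replicate 1 and 66.9% in replicate 2 overlapped an AtSMOS1 peak of the same replicate. The best match to the study's motif, in capitals in the sequence above, lay 74 bp and 21 bp from the summits of replicates 1 and 2.

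Of the 10 A-type cyclins, AT1G80370 (chr1:30213705-30217102), which belongs to the A2 cyclins that restrain endoreduplication and act in stomatal divisions, had an AtSMOS1 peak in both replicates. Fold enrichments were 3.36 and 4.40 (mean 3.88 ± 0.74, SD, n = 2), and the summits lay 126 bp and 56 bp past the end of the gene, inside the neighbouring gene AT1G80380. A further peak of replicate 2 alone, of 3.73-fold enrichment at −1955 bp, is nearest to AT1G80360. CYCA2;2 (AT5G11300) and CYCA2;3 (AT1G15570) had peaks in replicate 2 only, of 3.42-fold enrichment at −1076 bp, inside AT5G11310, and of 3.28-fold enrichment at −1323 bp. The A-type cyclins AT1G44110, AT5G25380, AT5G43080, AT1G47210, AT1G47220 and AT1G47230 had no peak within 2 kb in any list. CYCA1;2 (AT1G77390), a cyclin known from meiosis, had only an input peak, of 4.31-fold enrichment at −1957 bp, nearest to AT1G77400.

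The B-type cyclins, which drive entry into mitosis with CDKs, had 1 ChIP peak in all. CYCB2;2 (AT4G35620) alone had an AtSMOS1 peak, in replicate 1 only, with a fold enrichment of 4.26 and its summit at −1081 bp, where AT4G35610 is nearer. AT4G35620 also had an input peak of 4.39-fold enrichment at another site, 411 bp past the gene inside AT4G35630, and CYCB2;3 (AT1G20610) had an input peak of 3.49-fold enrichment at −1780 bp. The other 7 B-type cyclins, CYCB1;1 (AT4G37490), CYCB1;2 (AT5G06150), AT3G11520, AT2G26760, AT2G17620, AT1G76310 and AT1G16330, had no peak of any list within 2 kb. Counted over all 34 members, 24 (70.6%) had no ChIP peak within 2 kb, against 65.7% of all genes, and by family these were 7 of 10 A-type, 8 of 9 B-type and 5 of 10 D-type cyclins and 4 of 5 CDKs. No peak of any list was found at 22 members (64.7%), against 48.4% of all genes.

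**Figure D3:**
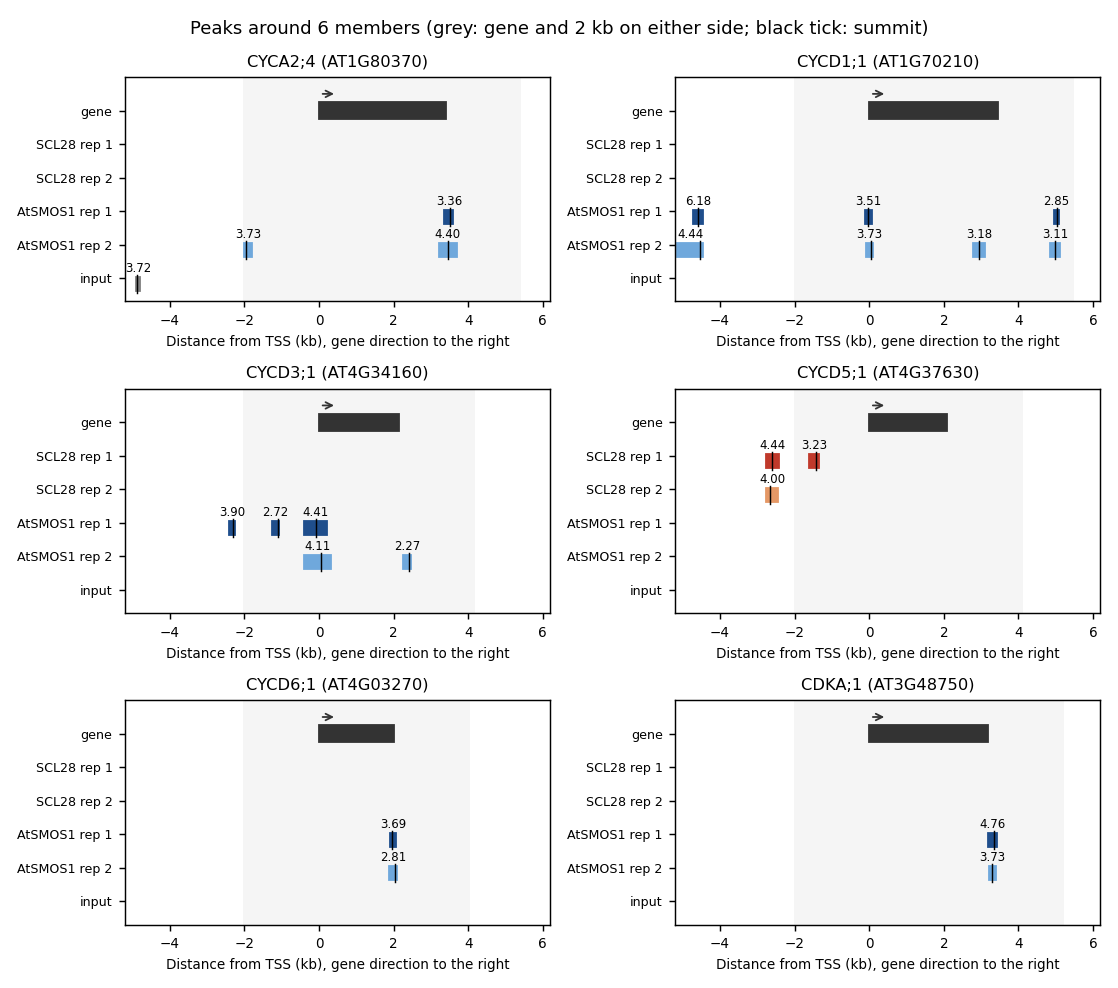
Peaks around 6 members, drawn to scale from the TSS (0 kb) in the direction of the gene, with the gene as a dark bar, the 2 kb window as a grey field, each peak as a coloured box with its summit as a black tick, and the fold enrichment above it. The shared AtSMOS1 peaks sit at the TSS of AT1G70210 and AT4G34160 and at the 3′ end of AT1G80370, AT4G03270 and AT3G48750, whereas AT4G37630 has SCL28 peaks only, with the shared site at −2616 bp and −2669 bp.

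The positions of the AtSMOS1 summits varied among members. In replicate 1, 4 of 9 member peaks (44.4%) had their summit upstream of the TSS, against 46.6% of all gene and peak pairs, 1 (11.1%) inside the gene, against 18.3%, and 4 (44.4%) past its end, against 35.1%. In replicate 2, 3 of 11 (27.3%) lay upstream, against 45.8%, 3 (27.3%) inside, against 18.7%, and 5 (45.5%) past the end, against 35.5%. Summits within 1 kb upstream numbered 2 of 9 in replicate 1 (22.2%, against 28.5%) and 0 of 11 in replicate 2 (against 27.7%). The summits at AT1G70210 and AT4G34160 fell just before the TSS in replicate 1 and just after it in replicate 2. The summits of the 6 shared sites differed between replicates by a median of 66 bp, in a range of 46 to 129 bp, and by a median of 50 bp over all 4415 pairs of overlapping AtSMOS1 peaks.

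The medians of the AtSMOS1 member peaks were near those of their lists, while single peaks ranged from weak to strong. The 9 member peaks of AtSMOS1 replicate 1 had a median fold enrichment of 3.51, against 3.65 for the list, and 4 of them stood above that list median. The 11 member peaks of replicate 2 had a median of 3.42, against 3.34, and 6 stood above it. The weakest, 2.27 at AT4G34160, stood below the first quartile of that list (2.87), and the strongest, 4.40 at AT1G80370, above its upper quartile (4.02). The SCL28 peak of 3.23 at AT4G37630 was at the first quartile of its list (3.22), and the 3 input peaks had a median of 4.31, against 3.72 for the input list. In each replicate 6 member peaks overlapped a peak of the other replicate, and the member was the nearest gene to 6 of 9 peaks in replicate 1 and to 8 of 11 in replicate 2. Counted by nearest gene, 5 members (14.7%) were nearest to an AtSMOS1 peak in both replicates, against 11.5% of all genes, whereas 3 members (8.82%) were so when the nearest TSS to the summit was used, against 10.9%.

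The median distance from a member to its nearest AtSMOS1 peak was also close to that of all genes. For SCL28 it was shorter in members and for the input longer, and these differences were not tested. The median distance to an AtSMOS1 peak was 8213 bp for members, against 7564 bp for all genes, in replicate 1, and 5053 bp, against 5410 bp, in replicate 2. For SCL28 the medians were 60742 bp, against 80425 bp, in replicate 1 and 74049 bp, against 96852 bp, in replicate 2. For the input the median was 9387 bp for members, against 6102 bp for all genes. Of the members just outside the 2 kb limit, AT4G37490, AT1G20610, AT3G50070 and the mitotic kinase gene CDKB1;1 (AT3G54180) had overlapping AtSMOS1 peaks of both replicates between 2 kb and 5 kb away, each nearer to another gene. At AT4G37490 these had fold enrichments of 4.59 and 6.89 near AT4G37470, and at AT3G50070 of 5.10 and 5.71 near AT3G50060. CYCB1;3 (AT3G11520), a B-type cyclin, had 1 peak per replicate in that range, at sites that did not overlap. AT1G70210 had a further shared site of 6.18-fold and 4.44-fold enrichment there, 4449 bp and 4454 bp before it and nearest to AT1G70200.

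**Figure D4:**
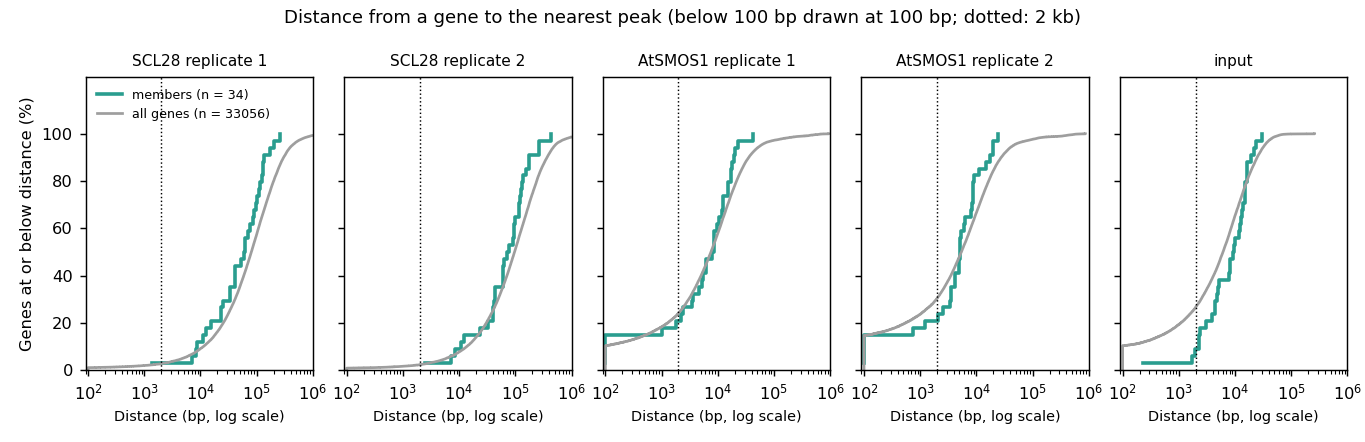
Cumulative share of genes (%, y axis) by distance to the nearest peak of each list (bp, log scale, x axis) for the 34 members (green) and all 33056 genes (grey), with the 2 kb limit dotted. The curves run close together for AtSMOS1, with medians of 8213 bp and 7564 bp in replicate 1, and the green curve lies to the right of the grey at short distances in the input.

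Among the members, the MSA core was most frequent before the B-type cyclins. The core AACGG was searched on both strands, so also as CCGTT, in the 250 bp before the TSS, and matches of the 2 forms cannot overlap each other. At least 1 core was found in 6 of 9 B-type cyclins (66.7%), 4 of 10 A-type cyclins (40.0%), 1 of 10 D-type cyclins and 1 of 5 CDKs, against 20.4% of all genes. At least 2 cores were found in the same 6 B-type cyclins and 4 A-type cyclins, against 3.51% of all genes. Of the 5 members with an AtSMOS1 peak in both replicates, AT4G34160 alone had a core, 1 of them, and its 250 bp stretch lies inside the neighbouring gene AT4G34150. The promoters of AT4G37490 (chr4:17624309-17624558, minus strand), the cyclin used as a reporter of cells at entry into mitosis, and of AT5G06150 (chr5:1861704-1861953, minus strand) are shown in the direction of the gene because they hold the core and lie at genes without a peak, with each core in capitals.
AT4G37490 promoter: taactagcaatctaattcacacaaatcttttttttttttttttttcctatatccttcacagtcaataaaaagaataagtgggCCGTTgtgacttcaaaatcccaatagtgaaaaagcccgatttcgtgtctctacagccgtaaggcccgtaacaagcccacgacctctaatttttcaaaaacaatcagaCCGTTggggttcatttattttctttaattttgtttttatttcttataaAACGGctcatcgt
AT5G06150 promoter: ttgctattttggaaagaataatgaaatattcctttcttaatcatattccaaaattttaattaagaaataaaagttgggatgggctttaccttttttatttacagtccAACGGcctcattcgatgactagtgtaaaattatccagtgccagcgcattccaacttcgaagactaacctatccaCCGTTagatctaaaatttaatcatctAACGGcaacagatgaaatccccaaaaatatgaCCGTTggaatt
AT4G37490 holds 3 cores, which start at −168, −61 and −13 bp, and AT5G06150 holds 4, at −143, −69, −43 and −11 bp. Neither gene had a peak of any list within 2 kb. A match is a description of the letters and was not tested as a site.

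**Figure D5:**
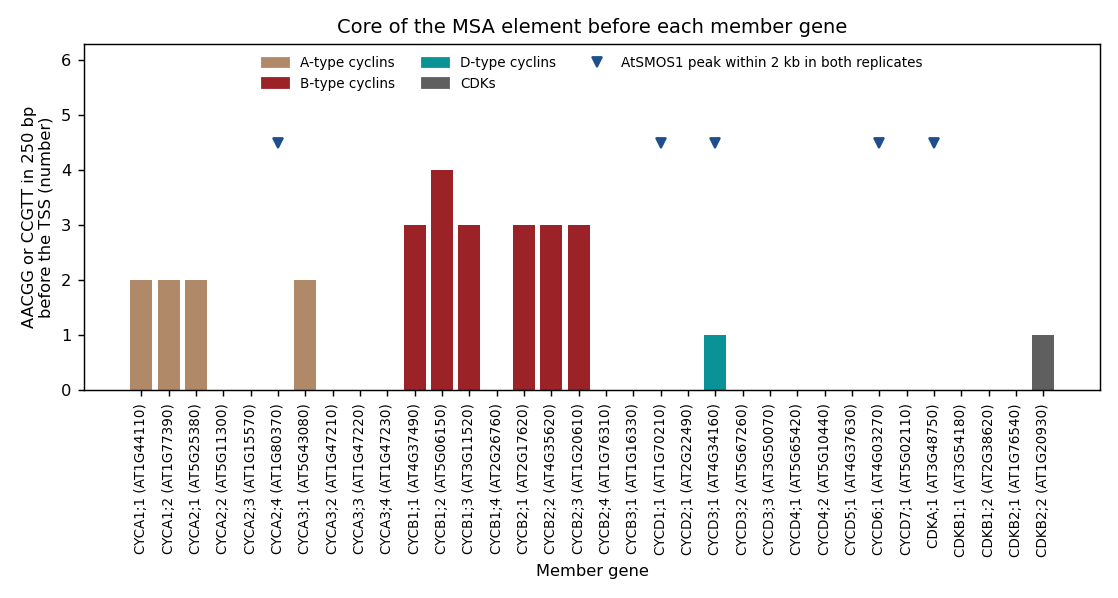
Number of AACGG or CCGTT matches in the 250 bp before the TSS (y axis) of each member (x axis), coloured by family, with triangles over the 5 members that had an AtSMOS1 peak within 2 kb in both replicates. The tallest bars belong to B-type cyclins, with 4 at AT5G06150, and of the 5 genes under triangles AT4G34160 alone has a bar.

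The 12-base motif derived by the study from peaks common to both proteins was searched on either strand in whole peaks. It matched 0 of the 1 SCL28 replicate 1, 9 AtSMOS1 replicate 1 and 11 AtSMOS1 replicate 2 peaks within 2 kb of members, both exactly and with up to 1 mismatch. Over whole lists an exact match was present in 22.1% and 26.0% of the SCL28 peaks, 1.16% and 1.12% of the AtSMOS1 peaks and 0.0527% of the input peaks, and with up to 1 mismatch in 54.7% and 62.4%, in 6.51% and 8.38%, and in 2.19%. The motif was derived from these same libraries and is no independent support for any site.

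Overlapping peaks of both proteins, of which the 34 members had 0, were found at some other genes that act on CDKs. Of 36 such genes, 14 had an AtSMOS1 peak within 2 kb in both replicates, against 20.7% of all genes, 9 an SCL28 peak in both, against 2.06%, 7 overlapping peaks of both proteins, against 1.27%, and 8 an input peak, against 26.7%. Most of these were SIM/SMR genes, and of the other 20 genes 5 had AtSMOS1 peaks in both replicates and 1, CDKD;1 (AT1G73690), had SCL28 peaks in both, which overlapped AtSMOS1 peaks. AT1G73690, a CDK-activating kinase, had SCL28 peaks of 7.39-fold and 6.40-fold enrichment and AtSMOS1 peaks of 6.58-fold and 4.85-fold enrichment, and no input peak. Of the CDK inhibitors of the SIM/SMR family, 16 genes were used, without SMR16, and these had 8 members with SCL28 peaks and 9 with AtSMOS1 peaks in both replicates, as at SMR2, with 10.63-fold and 10.14-fold enrichment for SCL28 and 11.69-fold and 12.86-fold for AtSMOS1. Of the 7 KRP inhibitors, which also bind CDKA complexes, KRP1, KRP4 and KRP6 had AtSMOS1 peaks in both replicates and 0 had SCL28 peaks. CKS1, CKS2, WEE1, which phosphorylates CDKs, and the 5 activators of the anaphase-promoting complex, which target cyclins for degradation, had no peak of any list within 2 kb. Of all genes, 48.4% had none either. The study first picked SMR genes by their expression in mutant and overexpressing plants. It then found SMR2, SMR4, SMR6, SMR8 and SMR9 among the common targets of its genome-wide ChIP-Seq, from these same samples. Binding at SMR2 was also measured there by ChIP-qPCR. The counts of SIM/SMR genes with peaks are therefore given for comparison and are no independent evidence of binding.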

How the data were processed

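ChIP-Seq peaks of SCL28-GFP and AtSMOS1-GFP seedlings (2 replicates each) and of the WT input (1 sample) were used as deposited, in 5 lists. The submitters' processing notes name Trimmomatic 0.38, Bowtie2 2.3.5, SAMtools 1.9, MACS2 2.2.7.1, deepTools and the TAIR10 build, whereas the Methods of the paper name Bowtie. The authors called peaks per sample, without pooling, at a q value cutoff of 0.05, so that a weaker peak is missing from a list. The supplement of the paper gives the caller's command with an input as the control. That command asks for broad peaks, whereas the Methods of the paper name sharp peaks and another extension size. The deposited lists hold a summit for each peak, and which settings made them is not known. The control given to the caller for the input list itself is not given in the sources used here. The fold enrichment is a ratio at the summit over the local background, computed by the authors' caller. The authors' caller also wrote a −log10 p and a −log10 q for each peak, and the deposited score is the whole-number part of 10 times the −log10 q and was not used. The deposited summit offset was counted from the start of the peak. Reads, coverage and depth were not used here.

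Organelle peaks were left out. Peaks were assigned to genes of RefSeq's TAIR10.1 annotation, after all peak ends were checked to lie within its chromosome lengths, when they lay within 2 kb of the gene (overlap of at least 1 bp). Positions are 1-based. A count over both replicates required a peak in each, at any place within the window. No test was made, because the rule for the members, which uses no measured value, and the lists were written with earlier results of these data known, and n is 2 per protein. The supplement of the paper calls the replicates biological, and the labels do not say how they were separated. Named genes were all members with a peak within 2 kb, members just outside, and the other CDK regulators by group. The assignment was tested on simulated data with 100 planted peaks. Python 3.11.15, numpy 2.4.6, pandas 2.3.3 and matplotlib 3.10.9 were used. Alternatives were other windows, summits only, a −log10 q of at least 5, protein-coding genes only, either replicate, and peaks overlapping the input left out. The last is a weak check, because the ChIP peaks were called against an input. With it the share of all genes with an AtSMOS1 peak in both replicates went from 20.7% to 20.6%.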

Additional observations from a re-analysis of the deposited data

How the results depend on the processing

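Of 44 alternative values, 29 were as reported or close to it and 15 moved. The 5 members with an AtSMOS1 peak in both replicates became 10 with a window of 5 kb (29.4%, against 35.5% of all genes), 2 with the summit within 2 kb of the TSS, 2 at a −log10 q of at least 5 (5.88%, against 9.71%) and 9 in either replicate, and numbered 7 to 7 with a replicate left out. The 0 members with SCL28 peaks became 1, CYCD5;1, at 5 kb and in either replicate, and 0 to 1 with a replicate left out. The 3 members with an input peak became 0 when the peak had to touch the gene, 1 at 1 kb and 12 at 5 kb. The median over members of the strongest AtSMOS1 fold enrichment, 3.88, was 3.69 to 3.73 with a replicate left out. The 2 AtSMOS1 summits within 1 kb upstream became 7 within 2 kb upstream, and 0 to 2 with a replicate left out. The 5 members nearest to an AtSMOS1 peak became 3 by nearest TSS. Overlapping peaks of both proteins stayed at 0 members in each of the 4 alternatives tried. No paired analysis was possible because the results are counts and values of peak lists without a test. The causes were not tested. Peaks below the authors' threshold are not in the lists, so that a gene without a peak may hold weaker signal, and with 2 replicates and no counts in the lists small differences in fold enrichment could not be resolved.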

Other observations

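The highest fold enrichment listed within 5 kb of a member was that of an input peak. The control given to the caller for the input list is not known. The value therefore cannot be compared in strength with those of the ChIP lists. That input peak lay 2319 bp from CYCD4;2, a D-type cyclin, with a fold enrichment of 8.46 and a rank of 117 of 5695 in its list. AT5G10430 and AT5G10435 are equally near to it. The nearest AtSMOS1 peaks lay 41537 bp from CYCD4;2 in replicate 1 and 5072 bp in replicate 2.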
